A study of Homo sapiens with 3 samples.

Results

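The ENA/VASP genes and the formins code for 2 families of proteins that lengthen actin filaments. The set described here holds 10 genes taken by symbol from the 26334 rows of each deposited gene table: the 3 ENA/VASP genes ENAH, VASP and EVL, and 7 of the 15 human formins, FHDC1, DIAPH1, DIAPH2, DIAPH3, FMNL1, FMNL2 and DAAM1. The set was chosen by results of these same libraries: the ratios of ENAH and FHDC1 between libraries were known to be large, and the other genes are their family members. Those ratios are therefore given as a description and support nothing further.

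The study measured RNA of K562 cells, an established erythroleukaemic line from a chronic myelogenous leukaemia, after retroviral infection. The 3 groups were cells with the pMYs-IG empty vector, with the same vector carrying HA-tagged EVI1-WT, and with it carrying HA-tagged EVI1+18, tied by the series title to aberrant splicing. All were stable infections of the same line with virus made in GP2-293 packaging cells, sorted for GFP 3 days after infection and then cultured. EVI1, the product of MECOM, is a zinc finger transcription factor of blood stem cells that is overexpressed in some myeloid leukaemias. With 1 library per group the variation between cultures is unknown, nothing could be tested, and the ratios below describe single libraries.

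Actin filaments grow fastest at one end, and capping protein stops that growth. ENA/VASP proteins hold the growing end, shield it from capping and feed it with actin bound to profilin; they dock on proline-rich ligands such as zyxin, vinculin and lamellipodin. Formins start unbranched filaments and ride on the growing end through a domain named FH2, and most diaphanous and FMNL formins are switched on by small GTPases. The ARP2/3 complex, in contrast, builds branched networks.

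Library totals were 17794423 (empty vector), 18439311 (EVI1-WT) and 20772348 (EVI1+18) counts. MECOM had 793, 1039 and 2012 counts in that order. These counts do not separate the cells' own transcript from that of the vector, so the amount of introduced EVI1 is not known, and its form and amount cannot be told apart. The 8 erythroid line markers fixed for K562 were all present, at a summed level of 51624 to 68347 TPM. The 10 stromal markers summed to 0.84 to 2.35 TPM and the 5 endothelial ones to 0.31 to 0.39 TPM, with LUM, CDH5, VWF, KDR and TEK at 0 counts in all libraries. Within the stromal list 2 genes moved in opposite directions: COL1A2, a collagen gene, had 93, 2 and 20 counts, and CAV1, for caveolin, 3, 13 and 30. Among 7 lymphoid and monocyte markers CD3D stood at 38.0, 12.2 and 12.9 TPM, and the rest were below 1 TPM. Past 2-fold on at most 9 counts were also COL3A1, COL6A3 and CD14. Of 6 epithelial markers EPCAM and KRT19 exceeded 100 TPM in every library, while CLDN4 was at 0 and CDH1 had at most 1 count.

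The promoters of the 2 genes that moved most are shown first, because they moved in opposite directions in the EVI1+18 library. Each is the 250 bases before a transcript start, from RefSeq on GRCh38.p14, in the gene's own direction. ENAH has 1 start in that table, on the minus strand at chr1:225653124-225653373. FHDC1 has 2, on the plus strand at chr4:152936073-152936322 and at chr4:152937553-152937802. The deposited tables were made on another build, hg19, and do not say which start was used.
ENAH promoter: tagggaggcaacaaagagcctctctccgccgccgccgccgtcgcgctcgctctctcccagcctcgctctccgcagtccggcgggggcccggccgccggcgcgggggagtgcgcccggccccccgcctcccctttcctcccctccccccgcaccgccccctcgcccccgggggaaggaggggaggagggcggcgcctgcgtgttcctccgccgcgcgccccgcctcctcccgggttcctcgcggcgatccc
FHDC1 upstream promoter: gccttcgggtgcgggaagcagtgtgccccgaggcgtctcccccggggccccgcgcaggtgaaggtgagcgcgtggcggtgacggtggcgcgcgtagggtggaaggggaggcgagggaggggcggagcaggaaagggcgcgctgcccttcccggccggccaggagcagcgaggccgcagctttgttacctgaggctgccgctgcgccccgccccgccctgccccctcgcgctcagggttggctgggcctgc
FHDC1 downstream promoter: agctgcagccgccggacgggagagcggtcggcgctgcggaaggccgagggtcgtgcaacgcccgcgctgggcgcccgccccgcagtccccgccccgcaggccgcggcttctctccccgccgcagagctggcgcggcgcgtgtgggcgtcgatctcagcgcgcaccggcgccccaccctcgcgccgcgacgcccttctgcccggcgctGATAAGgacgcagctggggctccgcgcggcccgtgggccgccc
Capitals mark a GATAAG, the letters of a GATA factor site, at position -43 from the downstream FHDC1 start. All 10 genes matched this table, with 14 promoters in all. GATAAG was searched on both strands and stood in 1 of the 14, the FHDC1 one, against 5.65% of all 35116 promoters. GACAAGATA and GAAGATGAG, letters bound by the 2 zinc finger domains of EVI1, stood in 0 of the 14, against 0.0854% and 0.265% of all. The end of the first of these can overlap the start of a GATA factor site. CCGGAA, an ETS factor core, stood in 1 of the 14, a DIAPH3 promoter, against 14.5% of all. These motifs were chosen after the expression values were seen, and a match describes letters only. GC content was 80% for ENAH and 76% and 80% for FHDC1, against a median of 58% over all promoters. Over the promoters of the other members it ranged from 46.8% (1 of DIAPH3) to 78% (FMNL1). It was 76.8% for 1 of EVL and 72.8% for DIAPH1, so high GC content was not particular to ENAH and FHDC1.

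Levels are given in TPM, which is relative to transcript length and comparable between genes, with exact Poisson 95% intervals that cover counting error only. With empty vector the order was DIAPH1 at 230.07, VASP at 151.44, EVL at 23.4, DIAPH3 at 16.6, FMNL1 at 16.1, DAAM1 at 6.42, ENAH at 0.86, FHDC1 at 0.56, FMNL2 at 0.33 and DIAPH2 at 0.12 TPM. DIAPH1 and VASP were thus the most abundant of the 10. DIAPH1 stood at the 93.8th percentile of TPM among the 10406 genes that averaged 50 or more counts, VASP at the 89.6th, ENAH at the 0.538th and FHDC1 at the 0.187th. The intervals of DIAPH3 (15.5 to 17.8) and FMNL1 (14.9 to 17.4) overlapped, as did those of ENAH (0.714 to 1.03) and FHDC1 (0.396 to 0.769), of FHDC1 and FMNL2 (0.199 to 0.515), and of FMNL2 and DIAPH2 (0.0440 to 0.261). The other neighbours did not overlap.

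The lower end of that order differed between libraries. With EVI1-WT, FHDC1 (1.46 TPM, 1.195 to 1.77) lay above ENAH (0.85 TPM, 0.709 to 1.01) with no overlap. With EVI1+18, FHDC1 (2.74 TPM, 2.40 to 3.12) stood next below DAAM1 (5.30 TPM), and ENAH (0.06 TPM, 0.0300 to 0.107) came last. The ENAH interval overlapped those of DIAPH2 (0.0325 to 0.233) and FMNL2 (0.0958 to 0.308). EVL and DIAPH3 were in the reverse order with EVI1-WT (15.8 and 16.8 TPM), where their intervals overlapped.

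**Figure D1:**
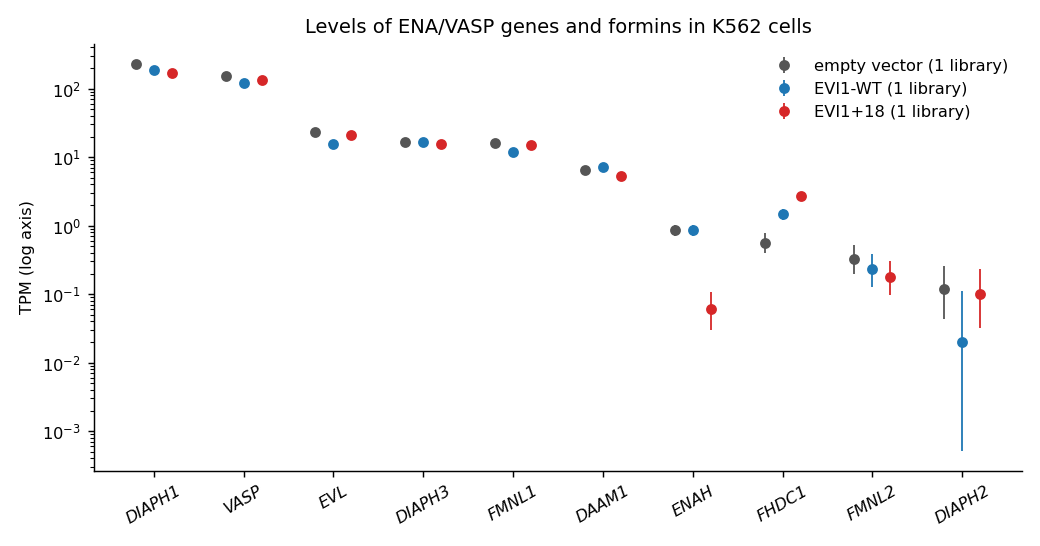
Level of each ENA/VASP gene and formin in TPM (log axis) in the 3 libraries, ordered by the empty vector library; points are single libraries and bars are 95% counting intervals. ENAH falls from 0.85 TPM with EVI1-WT to 0.06 TPM with EVI1+18, while FHDC1 goes from 0.56 to 1.46 and 2.74 TPM.

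ENAH, also called Mena, is the ENA/VASP gene best known from neurons and from invasive carcinoma cells. It had 121 counts with empty vector, 127 with EVI1-WT and 11 with EVI1+18, or 6.70, 6.96 and 0.532 CPM (counts relative to the library total, scaled with TMM factors). The empty vector and EVI1-WT libraries were alike and the EVI1+18 library stood far below both; in bulk RNA, fewer cells with the transcript and less of it per cell cannot be told apart. The ratio of scaled counts of EVI1-WT to empty vector was 1.04, with an exact 95% counting interval of 0.802 to 1.34. EVI1+18 was 12.6-fold lower than empty vector (6.80 to 25.9) and 13.1-fold lower than EVI1-WT (7.07 to 26.9), rank 4 from the lowest of 10406 genes in both comparisons. These comparisons share the EVI1+18 library, so a deviation of that 1 culture would appear in both. From deposited TPM with a pseudocount of 0.1, the ratio of EVI1+18 to empty vector was 0.167 in place of 0.0793, since the pseudocount exceeds the level of 0.06 TPM. Beside ENAH, the stromal markers summed to 2.35, 0.84 and 1.65 TPM. Of these, COL1A2 was 47.0-fold lower with EVI1-WT (12.7 to 394) and 5.33-fold lower with EVI1+18 (3.26 to 9.13) than with empty vector, and CAV1 was higher in both. The part of other cells in the ENAH values was not tested.

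VASP, the vasodilator-stimulated phosphoprotein first found in platelets, had 3339, 2888 and 3657 counts (185.0, 158 and 177 CPM). The 3 libraries lay close together, with EVI1-WT the lowest. Against empty vector it was 1.17-fold lower with EVI1-WT (1.11 to 1.23) and 1.05-fold lower with EVI1+18 (0.998 to 1.10), and EVI1+18 exceeded EVI1-WT 1.12-fold (1.06 to 1.17).

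EVL, the ENA/VASP gene of many leukocytes, had 402, 289 and 447 counts (22.3, 15.8 and 21.6 CPM). Again EVI1-WT was the lowest and the other libraries were alike. The ratio to empty vector was 0.711 with EVI1-WT (0.609 to 0.829) and 0.970 with EVI1+18 (0.846 to 1.11), and EVI1+18 exceeded EVI1-WT 1.37-fold (1.17 to 1.59). In GENCODE 29 exons of EVL overlap 280 bases of DEGS2 on the opposite strand, and DEGS2 had 24, 11 and 26 counts, the same order as EVL; reads of the pair cannot be told apart without strand, so EVL is uncertain to that extent. The part of DEGS2 in the EVL ratio was not tested.

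VASP made up 86.2%, 88.1% and 86.4% of the ENA/VASP TPM in the empty vector, EVI1-WT and EVI1+18 libraries, and ENAH 0.489%, 0.611% and 0.0385%. ENAH was thus a minor part of the ENA/VASP transcripts in every library. The sum was 175.71 TPM with empty vector, 139.16 with EVI1-WT and 155.76 with EVI1+18, ratios of 0.792 and 0.886 to empty vector. TPM itself shifted between libraries: the median gene had a log2 TPM ratio of -0.07 with EVI1-WT and -0.10 with EVI1+18. The TPM sums, here and for the formins below, are not corrected for that shift.

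**Figure D2:**
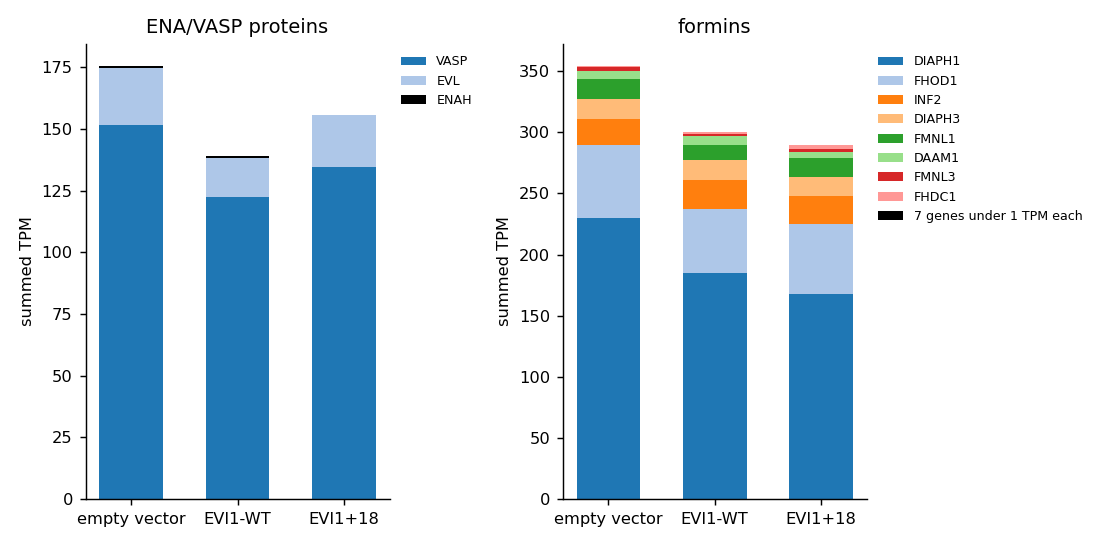
Summed TPM of the 3 ENA/VASP genes (left) and the 15 formins (right) in each library, stacked by gene, with axes from 0. VASP makes up at least 86.2% of the left bars, and DIAPH1 falls from 230.07 to 168.1 TPM in the right ones.

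FHDC1, a formin with an FH2 domain that also binds microtubules, had 38 counts with empty vector, 106 with EVI1-WT and 229 with EVI1+18 (2.11, 5.81 and 11.1 CPM). All 3 libraries differed. Their order was that of the MECOM counts, in which the cells' own and the vector's transcripts are not separated, and a relation between these genes was not tested. EVI1-WT exceeded empty vector 2.76-fold (1.89 to 4.11), rank 28 from the highest, and this interval reaches below 2-fold. EVI1+18 exceeded empty vector 5.26-fold (3.72 to 7.62), rank 8 from the highest, and EVI1-WT 1.91-fold (1.51 to 2.42). Even with EVI1+18 the gene was at the 6.09th percentile of TPM. Among the markers of other cells, KRT5 (2, 0 and 29 counts) and CAV1 were also highest with EVI1+18, while COL1A2 was highest with empty vector. The summed levels were 281, 271 and 321 TPM for the epithelial and 2.35, 0.84 and 1.65 TPM for the stromal list. EPCAM (122, 118 and 122 TPM) and KRT19 (159, 153 and 197 TPM) made up nearly all of the epithelial sum. The part of other cells in the FHDC1 values was not tested.

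The diaphanous formins act below small GTPases. DIAPH1, the main one of blood cells, had 13800, 11865 and 12438 counts (765, 650 and 601 CPM). It was highest with empty vector, at a ratio of 0.850 for EVI1-WT (0.829 to 0.871) and of 0.786 for EVI1+18 (0.767 to 0.806). The counting error is small at this depth, but the spread between cultures is unknown. DIAPH3, known for roles in cell division, had 817, 885 and 942 counts (45.3, 48.5 and 45.5 CPM), and all 3 of its intervals included a ratio of 1. DIAPH2 had 6, 1 and 5 counts. At that depth a difference was not detectable: the EVI1-WT to empty vector interval ran from 0.00358 to 1.36. The deposited rows DIAPH2-AS1, DIAPH3-AS1 and DIAPH3-AS2, named for antisense transcripts, had 0 counts in all libraries.

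FMNL1, a formin of leukocytes, had 647, 510 and 754 counts (35.9, 27.9 and 36.5 CPM). As with VASP and EVL the EVI1-WT library was the lowest, at a ratio of 0.779 to empty vector (0.692 to 0.876), against 1.02 for EVI1+18 (0.914 to 1.13), and EVI1+18 exceeded EVI1-WT 1.30-fold (1.16 to 1.46). GENCODE 29 has 3 loci on the opposite strand that overlap FMNL1 exons and have no row in the tables, so FMNL1 is uncertain in the same way as EVL. FMNL2 had 19, 14 and 13 counts, and each of its intervals included 1. DAAM1, a formin of WNT planar polarity signalling, had 394, 474 and 401 counts (21.8, 26.0 and 19.4 CPM). Like DIAPH3 it had its highest CPM in the EVI1-WT library, at 1.19-fold over empty vector (1.04 to 1.36), and EVI1+18 was 1.34-fold below EVI1-WT (1.17 to 1.53).

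**Figure D3:**
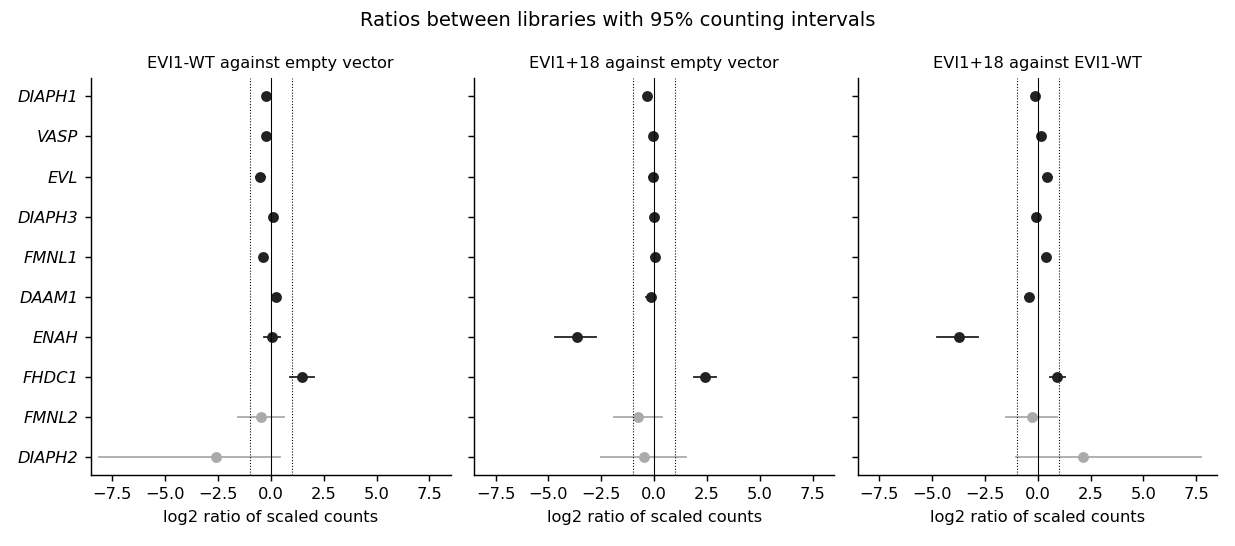
Log2 ratio of scaled counts for each gene in the 3 comparisons; points are ratios, bars are exact 95% counting intervals, dotted lines mark 2-fold, and grey marks genes averaging under 50 counts. ENAH at -3.66 and FHDC1 at 2.39 stand apart in the middle panel, and the other 6 genes in black lie inside 2-fold.

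A gene was called when its ratio passed 2-fold in either direction and it averaged 50 or more counts. That minimum was met by 8 of the 10 genes, FMNL2 and DIAPH2 lying under it. ENAH met it through the empty vector and EVI1-WT libraries. FHDC1, with 38 counts with empty vector, met it through the EVI1-WT and EVI1+18 libraries, where it was higher. With EVI1-WT against empty vector, 1 of the 8 was called, FHDC1, where 2.40% of all 10406 genes were called. With EVI1+18 against empty vector 2 were called, FHDC1 higher and ENAH lower, beside 1.85% of all genes. Between EVI1+18 and EVI1-WT 1 was called, ENAH, beside 1.16%. Since both genes led to the choice of the set, nothing is read from these counts. The median log2 ratio of the 8 was -0.09, -0.05 and 0.04 in the 3 comparisons, against 0.01, 0.00 and -0.01 over all genes. None of the other 6 passed 1.5-fold in any comparison, beside 6.32%, 5.53% and 4.42% of all genes past 1.5-fold; the nearest was EVL with EVI1-WT, 1.41-fold lower.

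**Figure D4:**
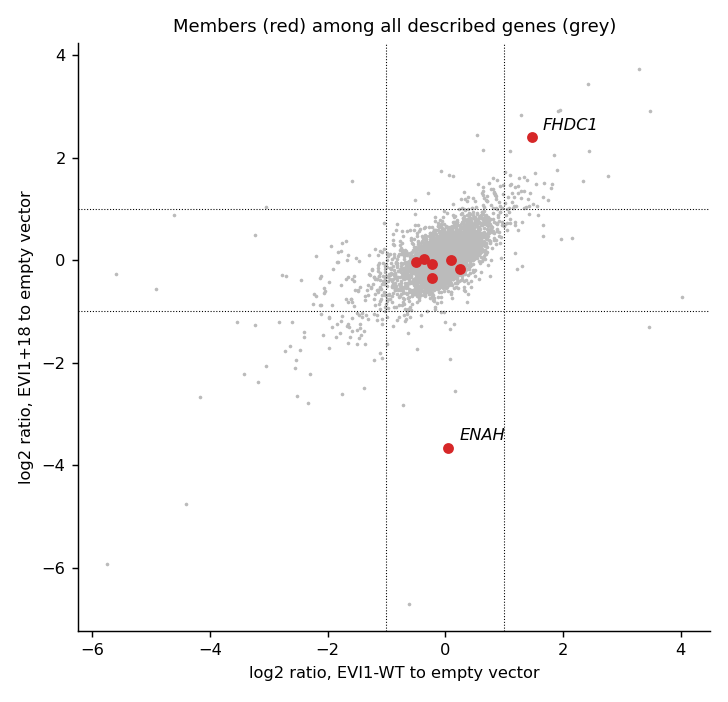
Log2 ratios to empty vector of all 10406 genes (grey) and of the 8 ENA/VASP and formin genes that averaged 50 or more (red), EVI1-WT on the horizontal and EVI1+18 on the vertical axis; dotted lines mark 2-fold. Both axes share the empty vector library, so the slope of the cloud is no result; ENAH lies at 0.05 and -3.66 and FHDC1 at 1.46 and 2.39.

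Among the 8 formins outside the set, 3 averaged 50 or more counts. Of these, 0 passed 2-fold, beside 2.40%, 1.85% and 1.16% of all genes in the 3 comparisons. FHOD1, a formin of stress fibres, had 2313, 2174 and 2736 counts and stayed within a ratio of 0.929 to 1.11. INF2, which acts at the endoplasmic reticulum and mitochondria, had 645, 797 and 917 counts and exceeded empty vector 1.22-fold with EVI1-WT (1.10 to 1.36) and 1.24-fold with EVI1+18 (1.12 to 1.37). FMNL3 had 432, 248 and 396 counts and was at a ratio of 0.567 (0.483 to 0.665) with EVI1-WT and 0.800 (0.696 to 0.919) with EVI1+18. DAAM2 and GRID2IP were at 0 counts in all libraries, and FMN1, FMN2 and FHOD3 had at most 2. The 15 formins summed to 354.59, 300.36 and 289.73 TPM, of which DIAPH1 made up 64.9%, 61.6% and 58.0% and FHDC1 0.158%, 0.486% and 0.946%.

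Of 12 ligands of ENA/VASP proteins, 6 averaged 50 or more counts. Of these, 0 passed 2-fold in any comparison, beside 2.40%, 1.85% and 1.16% of all genes. All 6 were below a ratio of 1 with EVI1-WT against empty vector, where 4934 of all 10406 genes were below 1. Their median log2 ratio there was -0.27. The intervals of 2 of the 6 included 1, those of TRIP6 and of ABI1, at 0.992 (0.914 to 1.08). With EVI1+18 the median was -0.03, with 3 above and 3 below. ZYX, which codes for zyxin, had 2263, 1646 and 2214 counts, VCL, for vinculin, 7770, 5995 and 8353, and TES, for testin, 358, 272 and 515. PFN1, for profilin, the most abundant at 733.89, 622.70 and 697.23 TPM, was at a ratio of 0.896 with EVI1-WT (0.869 to 0.923), and TRIP6, the next, at 0.960 (0.910 to 1.01). FYB, an ENA/VASP-binding adaptor of T cells and platelets, lay under the minimum, with 58, 13 and 33 counts, and was 4.51-fold lower with EVI1-WT (2.44 to 8.98). LPP and PALLD had at most 1 count and the lamellipodin gene RAPH1 12 to 19.

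Of 14 small GTPases and regulators of formins, 12 reached the minimum and 0 passed 2-fold, beside 2.40%, 1.85% and 1.16% of all genes, with medians of 0.00, -0.01 and -0.06. RHOA, which activates DIAPH1, had 6140, 6408 and 7044 counts and CDC42 5455, 6486 and 6723. RAC2, the RAC of blood cells, had 1619, 1061 and 1507 counts and was 1.54-fold lower with EVI1-WT (1.43 to 1.67). RHOF, under the minimum with 36, 17 and 23 counts, was 2.14-fold lower with EVI1-WT (1.17 to 4.07).

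Of 23 genes for the branching ARP2/3 complex and its activators, 20 reached the minimum and 1, WAS, passed 2-fold. It did so in both comparisons with empty vector, where 2.40% and 1.85% of all genes did. Nothing about the list is read from 1 gene. WAS, the activator mutated in Wiskott-Aldrich syndrome, had 64, 138 and 233 counts, in the same order as FHDC1. Against empty vector the ratio was 2.13 (1.57 to 2.91) with EVI1-WT and 3.18 (2.40 to 4.26) with EVI1+18. Its binding partner WIPF1, under the minimum with 68, 46 and 18 counts, was 4.33-fold lower with EVI1+18 than with empty vector (2.55 to 7.74). NCKAP1L, a blood cell subunit of the WAVE complex, had 254, 253 and 563 counts, 1.93-fold higher with EVI1+18 (1.66 to 2.25). Of the complex itself, ARPC3 was at ratios of 1.09 and 1.07 to empty vector and ARPC1B had 3573, 3849 and 4897 counts, and the list's medians were 0.10, 0.05 and 0.02.

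All 21 genes of capping and filament turnover reached the minimum. With EVI1+18 against empty vector 1 passed 2-fold, beside 1.85% of all genes, and nothing about the list is read from it. CORO1A, a coronin of leukocytes, had 61, 96 and 187 counts and exceeded empty vector 1.56-fold with EVI1-WT (1.12 to 2.18) and 2.67-fold with EVI1+18 (1.99 to 3.63). The filament-severing GSN, for gelsolin, had 109, 143 and 230 counts. TMSB4X, which sequesters actin monomers, exceeded empty vector 1.42-fold and 1.40-fold in the EVI1-WT and EVI1+18 libraries, while the severing factor CFL1 was at 0.908 and 0.974. The list's medians were 0.12, 0.10 and 0.01. Among 19 actins and targets of SRF and its actin-sensing cofactors, 14 reached the minimum. Of these, 0 passed 2-fold, beside 2.40%, 1.85% and 1.16% of all genes, and the medians were -0.06, -0.12 and 0.03. ACTB, at 2042.85, 1868.12 and 2095.83 TPM, was at ratios of 0.966 and 1.10 to empty vector, and ACTG1 at 0.834 and 0.892. MYL9, under the minimum with 18, 12 and 29 counts, was at a ratio of 2.13 between EVI1+18 and EVI1-WT (1.06 to 4.59). Genes such as ACTB, ACTG1, CFL1, PFN1 and TMSB4X have processed pseudogenes, and their counts are uncertain to the extent that reads were shared with them.

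Genes of like pattern were sought by the Euclidean distance between pairs of log2 ratios to empty vector, over the 3 libraries and 9930 genes. Nearest to ENAH were the desmosomal gene PKP2 at a distance of 1.11, with 143, 163 and 28 counts, ARHGAP15 at 1.14 with 86, 53 and 14, the lipoprotein lipase gene LPL at 1.72 with 267, 285 and 80, and PASD1 at 1.84 with 167, 65 and 34. Their ratios of EVI1+18 to empty vector were 0.171, 0.142, 0.261 and 0.178, each above that of ENAH, and ARHGAP15 and PASD1 were also below empty vector with EVI1-WT. FHDC1 had closer neighbours. SDC2, a cell surface proteoglycan gene, lay at a distance of 0.0609 with 22, 64 and 132 counts, the stress gene DDIT4, which restrains MTOR, at 0.461 with 1954, 4211 and 9758, the WNT receptor gene FZD3 at 0.461 with 19, 47 and 154, and the non-coding RNA H19 at 0.512 with 743, 2696 and 3527. The SDC2 ratios to empty vector, 2.88 with EVI1-WT and 5.23 with EVI1+18, lay within the counting intervals of FHDC1. SDC2 was picked as the nearest of 9930 genes on these same ratios, so their closeness was favoured by the choice. Both ratios of a gene also share its empty vector count, 22 for SDC2 and 38 for FHDC1, and are not independent. Nothing further is read from the closeness.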

How the data were processed

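Each library has its own table of genes, which per the file headers holds expected counts, TPM and FPKM. The expected counts the authors deposited were rounded; TPM was used for levels between genes, and the deposited FPKM values were not used. Per the submitters' processing notes the build was hg19 and bcl2fastq was used; for the aligner, counter and strand use, the sources used here give nothing. Counts were scaled with TMM factors (edgeR 4.0.16, R 4.3.3). Ratios have exact Clopper-Pearson 95% intervals given the sum of both counts (scipy 1.17.1), which cover counting error only, as reads are not independent molecules. A gene was called past 2-fold at a mean of at least 50 counts. Ratios and intervals were tested on simulated Poisson counts without variation between cultures. The intervals assume just that error, so the simulation checks the arithmetic and says nothing of the spread between cultures. Alternatives were DESeq2 1.42.0 size factors, library totals, TPM with a pseudocount of 0.1, unrounded counts, other minimums and thresholds. Members and lists were chosen with earlier results of these data known. Named genes are the members, other formins, list genes past 2-fold or among the 2 highest by TPM, and the 4 genes nearest in pattern to ENAH and to FHDC1; ZYX, VCL, TES, ABI1, RAC2, NCKAP1L, GSN and low or absent genes were named after their values were seen. Some list genes are not reported here. No replicate existed to leave out.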

Additional observations from a re-analysis of the deposited data

How the results depend on the processing

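Under DESeq2 size factors, library totals and unrounded counts all 30 member ratios stayed within their counting intervals. With TPM 24 of the 30 did. The numbers of members past 2-fold, 1, 2 and 1 for EVI1-WT against empty vector, EVI1+18 against empty vector and EVI1+18 against EVI1-WT, were the same under all scalings. With no minimum beyond 1 count they were 2 in the first comparison and 2 in the third, through DIAPH2. At 1.5-fold the third count was 2, with FHDC1 added. Where the whole interval had to pass 2-fold, the first count was 0, since the FHDC1 interval reaches below it. Over all genes the calls numbered 250, 192 and 121, and 691, 577 and 457 once the minimum was lowered to a mean of 10 counts, as more low genes entered. No paired analysis was possible because each group has 1 library, and for the same reason no library could be left out. Depth limits DIAPH2 and FMNL2 above all, and leaves ENAH with EVI1+18 resting on 11 counts.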
